A study of Rattus norvegicus with 12 samples.

Results

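The 90 genes described here were expressed in wild-type (WT) Normal Rat Kidney (NRK) cells and had lost most of their transcript in both VAMP7KO and ATG5KO cells. They were drawn from the 20842 genes of the count table by their CPM, the read count divided by the total of the library and multiplied by 1000000. A member had a mean of at least 1 CPM over the 4 WT libraries, which 11442 genes reached, and its highest value among the 8 knockout libraries was under 0.5 times its lowest WT value. These limits were met by 110 genes. Of those, 20 were left out by symbol (solute carriers, collagens, laminins, integrins, matrix proteases and 11 single genes), which left 80 members with a symbol and 10 known by identifier alone. The members were therefore chosen by the difference between knockout and WT cells, so that difference is described below and carries no test.

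RNA-seq was performed on NRK cells that were WT, VAMP7KO or ATG5KO, with 4 libraries per genotype. NRK is an established rat kidney line that the labels call epithelial. The knockouts were made with CRISPR/Cas9 by sorting single GFP-positive cells and growing them up, so each line may stand for 1 clone, and how many clones lie behind each line is not given in the sources used here. All cells were untreated and in complete growth medium, each library came from the RNA of 1 culture dish, and no line carried both knockouts or a rescue. In bulk RNA of this kind, fewer cells of a type and less RNA per cell cannot be told apart.

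VAMP7 is a SNARE protein that drives fusion of late endosomes and lysosomes with the plasma membrane, and ATG5 belongs to the conjugation machinery that extends the autophagosome membrane. The members include molecules of MHC class II, which present peptides loaded in late endosomes, receptors usually found on leukocytes, adhesion and guidance molecules of neurons, ion channels, growth factor receptors and genes normally restricted to the germline. A few belong to membrane traffic, GTPase signalling or protein turnover.

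Vamp7 itself (ENSRNOG00000008372) checked the VAMP7KO label alone, and the ATG5KO label was not checked. It averaged 112.3 ± 4.7 CPM in WT (SD, n = 4), 45.1 ± 5.42 CPM in VAMP7KO and 129.9 ± 1.75 CPM in ATG5KO. Its transcript was lower in VAMP7KO than in WT (log2 fold change -1.27, SE 0.0772, adjusted p = 6.08e-06, edgeR quasi-likelihood test), and the highest VAMP7KO library, at 51.2 CPM, lay under the lowest WT library, at 105.8 CPM. Libraries held between 21090858 and 31525111 counts. Gene symbols were known only for genes in the study's lists of changed genes, and 6 of 14 epithelial markers could be identified in this way (Krt8, Krt14, Cdh3, Cdh16, Dsp and Ppl). Their summed level was 1034 to 1357 CPM in WT, 688 to 733 CPM in VAMP7KO and 979 to 1247 CPM in ATG5KO. The 7 fibroblast markers identified of 10 summed to 509 to 1515 CPM in WT, 1006 to 3090 CPM in VAMP7KO and 2243 to 4076 CPM in ATG5KO. Mean CPM in WT, VAMP7KO and ATG5KO was 883.9, 1126.7 and 2113.0 for Col1a1, 120.1, 745.7 and 806.9 for Col3a1 and 3.87, 164.4 and 69.8 for Lum. It was 0.0655, 2.14 and 0.817 for Dcn, 4.48, 0.124 and 6.18 for Fbn1, 0.107, 0 and 35.1 for Pdpn and 0.349, 0.11 and 145.3 for Thy1. The 3 smooth muscle markers identified of 6 (Acta2, Des and Actg2) summed to 10.1 to 15 CPM in WT, 45.6 to 121.7 CPM in VAMP7KO and 69.4 to 83 CPM in ATG5KO, above WT in every knockout library. The genes behind the sums differed between the lines. Mean CPM in WT, VAMP7KO and ATG5KO was 9.36, 72 and 8.86 for Acta2, 0.59, 6.59 and 0.47 for Actg2, and 2.87, 1.08 and 67.7 for Des. The 1 neuronal marker identified of 8, Elavl4, is itself a member. The part of such cells in the values below was not tested.

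The 4 MHC class II members were the 3 chains RT1-Ba, RT1-Da and RT1-Db1 and the invariant chain Cd74, which escorts class II molecules to the endosome. The starts of the 3 chain genes are shown because these genes neighbour each other and share promoter elements. In the RefSeq gene order of assembly GRCr8, RT1-Db1 and RT1-Ba had 0 protein-coding genes between them, and RT1-Da and RT1-Db1 had 1, RT1-Db2. Class II promoters are known to carry an X box followed by a Y box with an inverted CCAAT. The 150 bases before each RefSeq start are given 5′ to 3′ on the strand of the gene (GRCr8; RT1-Da chr20:4515265-4515414, plus strand, RT1-Db1 chr20:4560163-4560312, minus strand, RT1-Ba chr20:4576907-4577056, plus strand), with capitals for CTGATTGG, for GCAAC ahead of it and for TGACGTCA.
RT1-Da: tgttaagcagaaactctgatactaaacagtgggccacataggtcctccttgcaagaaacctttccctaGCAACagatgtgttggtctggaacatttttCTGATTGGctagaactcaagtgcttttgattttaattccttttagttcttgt
RT1-Db1: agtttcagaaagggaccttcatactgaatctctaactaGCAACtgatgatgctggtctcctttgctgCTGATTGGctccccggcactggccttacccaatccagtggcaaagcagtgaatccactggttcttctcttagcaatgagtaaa
RT1-Ba: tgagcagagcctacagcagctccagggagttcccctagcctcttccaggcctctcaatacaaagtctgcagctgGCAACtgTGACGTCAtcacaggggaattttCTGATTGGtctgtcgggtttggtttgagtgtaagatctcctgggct
CTGATTGG, searched on both strands, was found in 3 of 67 member promoters of 300 bases, those of these 3 genes, and in 3.5% of all 33469 promoters in the table. GCAAC within 40 bases ahead of it stood in the same 3 and in 0.176% of all promoters. The gap between the pair was 25 bases in RT1-Da, 24 in RT1-Db1 and 25 in RT1-Ba. TGACGTCA, the letters of the cyclic AMP response element, was found in RT1-Ba, where it lay between GCAAC and CTGATTGG. It was also found in Flt1 and in 1.83% of all promoters. A match of letters is a description and not a site. Of the 80 members with a symbol, 61 had a promoter in the table.

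Values of single libraries are given in CPM in the order of replicates 1 to 4. RT1-Db1, a class II beta chain, had 19, 23.1, 12.1 and 10.8 CPM in WT, 0.363, 0.177, 0.491 and 0.358 in VAMP7KO and 3.65, 4.47, 3.24 and 2.85 in ATG5KO. It kept 2.14% of its WT mean in VAMP7KO and 21.9% in ATG5KO, and all ATG5KO libraries lay above all VAMP7KO libraries. Reads shared with its neighbouring copies could be split between them, so the levels of the RT1 genes are uncertain. Cd74 had 3.33, 3.58, 2.73 and 3.33 CPM in WT, 0.165, 0.0441, 0 and 0.159 in VAMP7KO and 0.284, 0.0699, 1.2 and 1.07 in ATG5KO. Its knockout lines overlapped in replicates 1 and 2, and ATG5KO was above all VAMP7KO libraries in replicates 3 and 4. RT1-Ba, a class II alpha chain, had 2.44, 3.14, 1.24 and 1.74 CPM in WT, 0 in all 4 VAMP7KO libraries and 0.0948, 0, 0.0364 and 0.0934 in ATG5KO. RT1-Da, the other alpha chain, had 0.717, 1.16, 1.74 and 2.01 CPM in WT, 0 in all 4 VAMP7KO libraries and 0.0474, 0.0699, 0.145 and 0.187 in ATG5KO. Both were without a read in VAMP7KO, where the WT means were at least 76-fold and at least 50-fold higher than the level of 3 counts over the 4 libraries together. These bounds, like every at-least bound below, allow for counting error in the group without a read alone. Counting error of the other group and spread between libraries are left out.

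The comparison of VAMP7KO with ATG5KO was not used to choose the members and was run, with log2 fold changes given as VAMP7KO over ATG5KO. Its filter on low counts also saw the WT libraries, where the rule made members high. On the 2 knockout lines alone only 26 members passed that filter, so many members were tested only through their WT level. Of the class II members, 3 of 4 were higher in ATG5KO and 0 were higher in VAMP7KO, where 23.6% and 21.3% of all genes tested were called. RT1-Da did not pass the filter on the 2 lines alone, so this tally supports nothing about class II. RT1-Db1 was higher in ATG5KO (log2 fold change -3.23, SE 0.279, adjusted p = 1.71e-05), also on the 2 lines alone (adjusted p = 0.000337). RT1-Da was at least 3.99-fold higher there (adjusted p = 0.00599), a call lost within replicates 1 and 2 alone (adjusted p = 0.157). It rested on 11 counts in ATG5KO and 0 in VAMP7KO. Cd74 was also higher in ATG5KO (log2 fold change -2.60, SE 0.852, adjusted p = 0.0306), from 64 counts there and 10 in VAMP7KO, while RT1-Ba did not pass (adjusted p = 0.0895). Among the 7 class II list genes tested, members and others, 5 were higher in ATG5KO and 0 in VAMP7KO. These genes were known only through lists of changed genes, so the counts support no direction.

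Of 52 genes on the list of leukocyte receptors and signalling, 32 were identified and 8 were members (Bin2, Cd37, Ctla2a, Hk3, Il2rg, Kcna3, Pirb and Ptprc). Symbols came from lists of genes changed against WT, so the genes of this and every other list were chosen as changed. Shares of a list and of all genes therefore come from unlike sets, and list counts support no direction. Il2rg, the common gamma chain of interleukin receptors, had 25.2, 27.9, 8.5 and 6.56 CPM in WT, 2.34, 2.83, 2.8 and 2.47 in VAMP7KO and 0.759, 1.5, 0.473 and 0.467 in ATG5KO. Bin2, a membrane-curving protein of leukocytes, had 16.9, 18, 13.1 and 16.3 CPM in WT, 0.066, 0, 0.175 and 0.199 in VAMP7KO and 2.7, 2.31, 2.15 and 2.01 in ATG5KO. Pirb, an inhibitory immunoglobulin-like receptor, had 14.2, 13.2, 3.84 and 4.72 CPM in WT, 0.528, 0.706, 0.701 and 1.07 in VAMP7KO and 1.09, 1.68, 1.42 and 1.21 in ATG5KO. The lines did not overlap for any of these genes, with VAMP7KO above ATG5KO for Il2rg and below it for Bin2 and Pirb. Il2rg was higher in VAMP7KO (log2 fold change 1.90, SE 0.39, adjusted p = 0.003) and Bin2 in ATG5KO (log2 fold change -4.24, SE 0.387, adjusted p = 2.37e-05), whereas Pirb did not pass (adjusted p = 0.175). Ptprc, the leukocyte phosphatase CD45, had 13.3, 12.8, 2.66 and 3.13 CPM in WT, 0 in all 4 VAMP7KO libraries and 0, 0.0699, 0.0364 and 0 in ATG5KO. Its 3 counts over the ATG5KO libraries put the share kept there at 0.333% (95% exact counting interval 0.0806 to 1.15%). The other 4 members of the list, Cd37, Ctla2a, Hk3 and Kcna3, kept 1.44 to 13.4% in VAMP7KO and 0 to 19.8% in ATG5KO. Of the 27 list genes tested, 2 were higher in VAMP7KO and 12 in ATG5KO, against 21.3% and 23.6% of all genes tested. The 6 leukocyte markers identified of 10 summed to 7.45 to 25.2 CPM in WT, 0.462 to 1.54 CPM in VAMP7KO and 7.02 to 12.9 CPM in ATG5KO. Without the 3 that were members, Csf1r, Was and Lcp1 summed to 0.243 to 2.6 CPM in WT, 0.033 to 0.876 CPM in VAMP7KO and 6.02 to 11.3 CPM in ATG5KO, and Ptprc was at 0 in VAMP7KO. The part of leukocytes in these values was not tested.

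**Figure D1:**
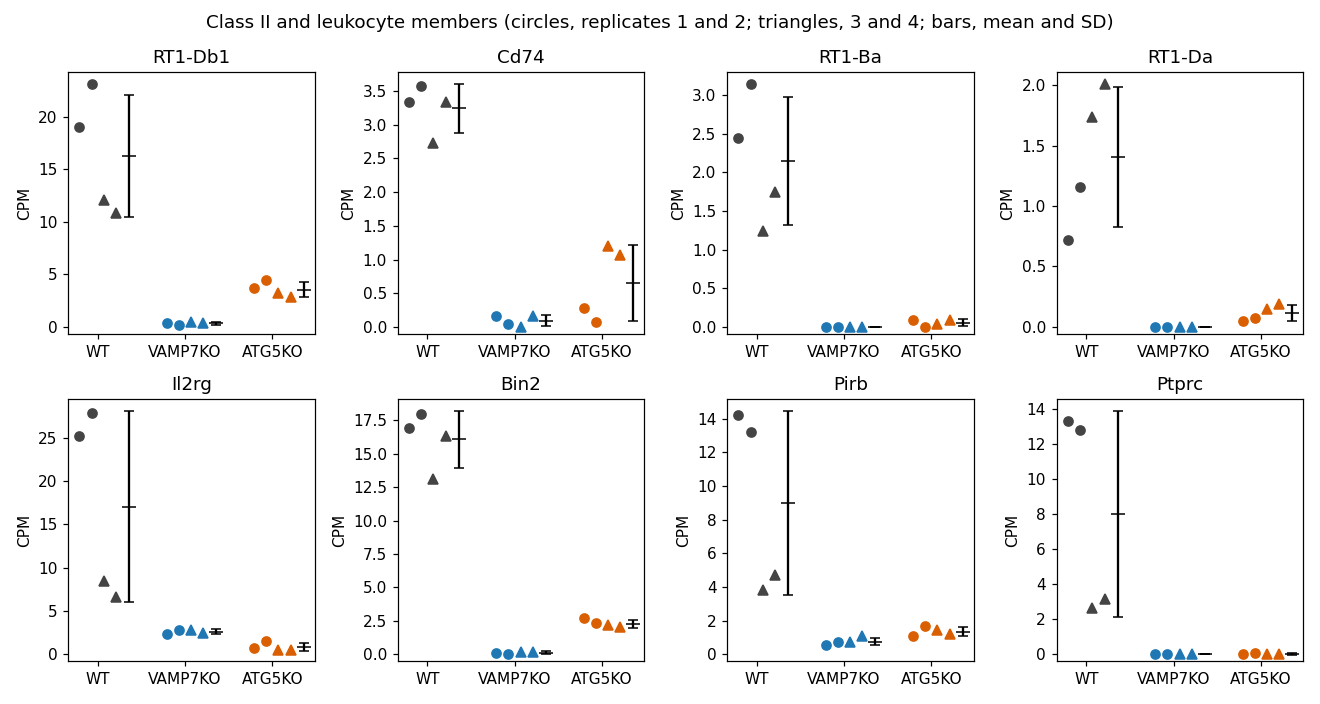
CPM (vertical axes) of 4 class II and 4 leukocyte members in each library, by genotype, with circles for replicates 1 and 2, triangles for replicates 3 and 4, and bars for the mean and SD of 4 libraries. RT1-Db1 and Bin2 kept more in ATG5KO than in VAMP7KO, and WT levels of Il2rg, Pirb and Ptprc were lower in replicates 3 and 4 than in 1 and 2.

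Of 63 genes on the list of axon guidance and neural adhesion, 28 were identified and 11 were members. Alcam, an adhesion molecule of the immunoglobulin superfamily, had 35.7, 33.2, 22.3 and 22 CPM in WT, 2.74, 3.09, 8.45 and 7.33 in VAMP7KO and 0.427, 0.245, 0.436 and 0.234 in ATG5KO. Robo1, a receptor for Slit ligands, had 22.7, 23.5, 8.6 and 7.61 CPM in WT, 0.297, 0.177, 0.421 and 0.438 in VAMP7KO and 0, 0, 0.0364 and 0.0934 in ATG5KO. Ppp1r9a (neurabin), an actin-binding scaffold of synapses, had 10.1, 8.67, 5.68 and 5.63 CPM in WT, 1.29, 0.751, 0.736 and 0.876 in VAMP7KO and 0 in all 4 ATG5KO libraries. For each of the 3 genes every VAMP7KO library lay above every ATG5KO library. Alcam kept 19.1% in VAMP7KO and 1.18% in ATG5KO (log2 fold change 4.01, SE 0.491, adjusted p = 0.000145). Robo1 kept 2.13% in VAMP7KO and, from 3 counts, 0.208% in ATG5KO (95% exact counting interval 0.0409 to 0.582%), and passed the test (adjusted p = 0.0161). Ppp1r9a was at least 30-fold higher in VAMP7KO (adjusted p = 6.59e-05). Of the 9 members of this list tested, these 3 were higher in VAMP7KO and 0 were higher in ATG5KO, against 21.3% and 23.6% of all genes tested. Of all 24 list genes tested, 6 were higher in VAMP7KO and 7 in ATG5KO. The other members were Cadm2, Elavl4, Minar2, Nfasc, Ptprd, Ptprt, Slit1 and Sorcs3, with 0 to 11.4% kept in VAMP7KO and 0 to 14.3% in ATG5KO. Slit1, a ligand of Robo1, kept 11.4% and 3.33%. Cadm2 lies with 2 protein-coding genes between it and Robo1 and had 2.58, 2.13, 0.254 and 0.382 CPM in WT and 0 in all 8 knockout libraries.

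Both cadherin members were low in the knockouts. Cdh9 had 6.45, 7.12, 2.13 and 2.29 CPM in WT, 0.495, 0.486, 0.911 and 0.557 in VAMP7KO and 0.0948, 0.0699, 0.0364 and 0 in ATG5KO and was higher in VAMP7KO than in ATG5KO (log2 fold change 3.65, SE 0.696, adjusted p = 0.00201). Pcdh20, a protocadherin, had 1, 1.12, 2.47 and 2.5 CPM in WT, 0.033, 0.132, 0 and 0 in VAMP7KO and 0 in all 4 ATG5KO libraries. Pcdh20 rested on 4 counts over the VAMP7KO libraries, and its lines were not told apart (adjusted p = 0.217).

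Ion channels gave 7 members of 57 identified list genes. Aqp1, the water channel of the proximal tubule, had 176.3, 152.6, 338.2 and 320.2 CPM in WT, 1.95, 0.883, 9.57 and 10 in VAMP7KO and 6.92, 5.17, 34.4 and 33.3 in ATG5KO. It kept 2.27% in VAMP7KO and 8.09% in ATG5KO. Mcoln3, a cation channel of endosomes and lysosomes, had 9.72, 8.28, 12.9 and 11.3 CPM in WT, 1.09, 0.927, 2 and 2.39 in VAMP7KO and 1.56, 1.4, 1.05 and 1.21 in ATG5KO. Kcnmb2, an accessory subunit of calcium-activated potassium channels, had 4.02, 4.08, 7.42 and 7.33 CPM in WT, 0.066, 0.0883, 0.21 and 0.358 in VAMP7KO and 0 in all 4 ATG5KO libraries. Aqp1 was higher in ATG5KO (log2 fold change -1.77, SE 0.322, adjusted p = 0.00157). The lines overlapped over the 4 replicates, but within replicates 1 and 2 and within replicates 3 and 4 each ATG5KO library lay above each VAMP7KO library. Kcnmb2 was at least 5.94-fold higher in VAMP7KO (adjusted p = 0.00274, and 0.0736 within replicates 1 and 2 alone), and Mcoln3 did not pass (adjusted p = 0.46). Kcnmb2 rested on 19 counts in VAMP7KO and entered the test only through its WT level. The calcium channels Cacna1d (-2.06 on the log2 scale, SE 0.675, adjusted p = 0.0307) and Ryr1 (-2.57, SE 0.839, adjusted p = 0.0303) were higher in ATG5KO. Cacna1d had 5 counts in all in VAMP7KO and 22 in ATG5KO, and Ryr1 had 6 and 36. Neither call was followed under the alternatives. Trpa1, a sensor of irritants (adjusted p = 0.344), and Kcna3, a potassium channel of T cells (adjusted p = 0.655), did not pass. Of the 46 list genes tested, 7 were higher in VAMP7KO and 25 in ATG5KO, against 21.3% and 23.6% of all genes tested. The list genes were known only through changes against WT, so these counts support no direction.

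Kidney segment genes gave Aqp1, Calcrl and Cyp3a62 among 11 identified of 23. Calcrl, the receptor that binds adrenomedullin and calcitonin gene-related peptide with its partner proteins, had 16.6, 12.7, 5.39 and 4.41 CPM in WT, 0.099, 0.265, 0 and 0.159 in VAMP7KO and 0.0948, 0, 0.0364 and 0 in ATG5KO. Cyp3a62, a cytochrome P450, had 6.6, 5.6, 0.888 and 0.799 CPM in WT, 0.363, 0.353, 0.28 and 0.239 in VAMP7KO and 0.0948, 0.105, 0.145 and 0 in ATG5KO. Neither passed the test between the lines (adjusted p = 0.141 and adjusted p = 0.0673).

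The growth factor list gave 5 members of 29 identified. Alk, a receptor tyrosine kinase, had 28.4, 34.2, 2.95 and 3.89 CPM in WT, 0.198, 0.132, 0.035 and 0.159 in VAMP7KO and 0.853, 0.629, 0.618 and 0.701 in ATG5KO. Flt1, a receptor for vascular endothelial growth factor, had 10.3, 9.83, 9.1 and 9.45 CPM in WT, 3.23, 1.55, 2.63 and 3.38 in VAMP7KO and 1.56, 1.5, 0.727 and 1.21 in ATG5KO. Alk kept 0.756% in VAMP7KO and 4.03% in ATG5KO, and was higher in ATG5KO (log2 fold change -2.51, SE 0.831, adjusted p = 0.0318). Flt1 kept 27.9% and 13% and was higher in VAMP7KO (log2 fold change 1.16, SE 0.265, adjusted p = 0.00563). The neurotrophin Ntf3 kept 4.86% in VAMP7KO, from 12 counts, and was without a read in ATG5KO (adjusted p = 0.0291). Wnt7a, a Wnt ligand, kept 10.2% and 7.05% (adjusted p = 0.371). The 4 endothelial markers identified of 8, Flt1 among them, summed to 10.7 to 13.4 CPM in WT, 2.03 to 3.99 CPM in VAMP7KO and 2.24 to 3.81 CPM in ATG5KO. Without Flt1, the other 3 summed to 1.59 to 3.08 CPM in WT, 0.279 to 0.759 CPM in VAMP7KO and 1.03 to 2.31 CPM in ATG5KO, so ATG5KO overlapped WT. The part of endothelial cells was not tested.

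The list of secreted and defence genes gave 4 members of 30 identified. Crisp3, a cysteine-rich secretory protein, had 261.1, 252.4, 500.2 and 473.5 CPM in WT, 1.12, 1.28, 14.5 and 15.6 in VAMP7KO and 21.3, 22.3, 59.5 and 57 in ATG5KO. Mx1, an interferon-induced GTPase, had 21.7, 20.5, 2.32 and 1.84 CPM in WT, 0, 0.132, 0.105 and 0.438 in VAMP7KO and 0.0474, 0, 0 and 0.0934 in ATG5KO. Crisp3 was higher in ATG5KO (log2 fold change -2.54, SE 0.406, adjusted p = 0.000717), with no overlap of the lines. Mx1 did not pass (adjusted p = 0.295). Defb29, a beta-defensin, kept 26.5% and 16.5% and was higher in VAMP7KO (log2 fold change 0.75, SE 0.243, adjusted p = 0.0289).

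**Figure D2:**
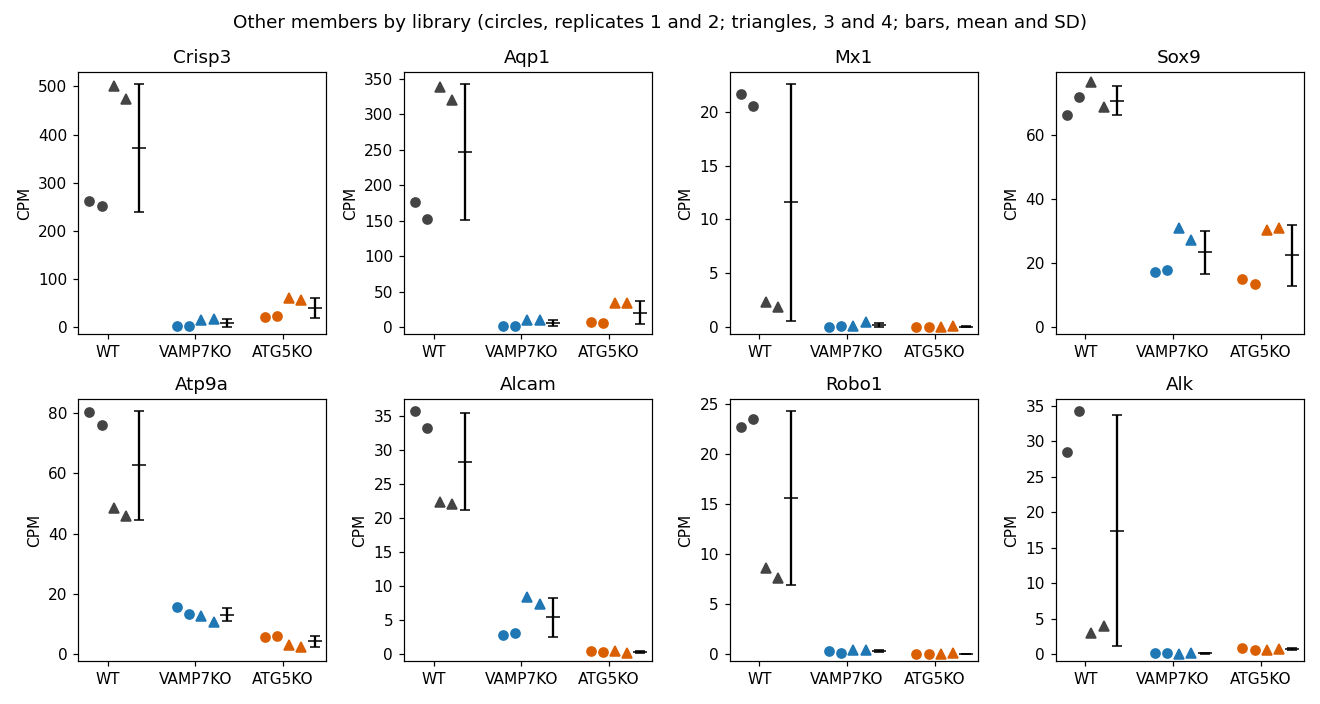
CPM (vertical axes) of 8 members of other roles in each library, by genotype, with circles for replicates 1 and 2, triangles for replicates 3 and 4, and bars for the mean and SD of 4 libraries. Crisp3 and Aqp1 were higher in replicates 3 and 4 of each genotype, and Alk was lower there in WT.

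Transcription factors gave Sox9, Dach1, Nkx2-5 and Tox3 among 37 identified list genes. Sox9, a regulator of cartilage and of kidney epithelium, had 66, 71.6, 76.4 and 68.5 CPM in WT, 17.2, 17.8, 30.7 and 27.1 in VAMP7KO and 14.8, 13.5, 30.3 and 30.9 in ATG5KO. Dach1 had 3.73, 3.36, 0.92 and 0.868 CPM in WT, 0 in all 4 VAMP7KO libraries and 0.0474, 0, 0 and 0 in ATG5KO. Nkx2-5, a factor of heart development, had 1.43, 2.17, 1.17 and 1.29 CPM in WT, 0 in all 4 VAMP7KO libraries and 0.237, 0.105, 0 and 0.14 in ATG5KO. Sox9 kept 32.8% and 31.7%, and the lines did not pass the test (log2 fold change 0.14, SE 0.166, adjusted p = 0.512). Nkx2-5 passed the test with a higher level in ATG5KO (adjusted p = 0.0387), but 10 of 19 alternative fits lost the call. It rested on 11 counts in ATG5KO and entered the test only through its WT level. Tox3 had 1.65, 2.2, 0.412 and 0.347 CPM in WT and 0 in all 8 knockout libraries.

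Germline members were Piwil4, Dpy19l2 and Morc1. Piwil4, a Piwi protein that binds small RNAs against transposons, had 8.21, 7.66, 3.24 and 2.64 CPM in WT, 0.099, 0, 0 and 0 in VAMP7KO and 0 in all 4 ATG5KO libraries. Dpy19l2, needed to shape the sperm head, had 3.37, 3.79, 1.33 and 1.25 CPM in WT, 0.165, 0.0883, 0 and 0 in VAMP7KO and 0 in all 4 ATG5KO libraries. Morc1, which silences transposons in male germ cells, had 1.08, 1.55, 0.825 and 0.868 CPM in WT, 0, 0.0883, 0 and 0.0398 in VAMP7KO and 0 in all 4 ATG5KO libraries. None of the 3 had a read in ATG5KO, and none passed the test between the lines, with adjusted p between 0.0625 and 0.172. The Gag-derived members descend from a retrotransposon. Rtl8a had 3.84, 3.98, 1.78 and 1.63 CPM in WT and 0 in all 8 knockout libraries. Rtl3 had 3.01, 3.9, 1.08 and 0.973 CPM in WT, 0.198, 0.353, 0 and 0.0796 in VAMP7KO and 0 in all 4 ATG5KO libraries and was at least 5.18-fold higher in VAMP7KO (adjusted p = 0.013), a call lost without the replicate block (adjusted p = 0.0634) and within replicates 3 and 4 alone (0.229). Rtl3 rested on 16 counts in VAMP7KO and entered the test only through its WT level. Reads of the Rtl8 family could be shared among its near-identical copies.

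Membrane fusion and small GTPase signalling gave 4 members (Arl13b, Gng2, Mctp2 and Ranbp17) of 38 identified list genes. Of these 4 members, 2 were higher in VAMP7KO and 0 in ATG5KO, against 21.3% and 23.6% of all genes tested. Of the 32 list genes tested, 5 were higher in VAMP7KO and 18 in ATG5KO, and as for every list these counts support no direction. P-type ATPases gave Atp9a, and 2 of 7 list genes tested were higher in each line. Autophagy and lysosome gave Ubqln2, and of 4 list genes tested 1 was higher in VAMP7KO and 2 in ATG5KO. Atp9a, a P-type ATPase of endosomes, had 80.4, 76, 48.6 and 45.7 CPM in WT, 15.8, 13.3, 12.7 and 10.7 in VAMP7KO and 5.55, 6.08, 3.09 and 2.24 in ATG5KO (log2 fold change 1.75, SE 0.161, adjusted p = 2.48e-05). Ubqln2, which hands ubiquitinated proteins to the proteasome, had 28, 26.4, 18.4 and 15.1 CPM in WT, 0.99, 0.795, 0.561 and 0.358 in VAMP7KO and 0.237, 0.14, 0.0364 and 0 in ATG5KO (log2 fold change 2.74, SE 0.396, adjusted p = 0.000405). The lines did not overlap for either gene, with VAMP7KO higher. Mctp2, a calcium-binding protein of the endoplasmic reticulum, had 11.7, 12.1, 4.19 and 3.44 CPM in WT, 0.033, 0, 0 and 0 in VAMP7KO and 0 in all 4 ATG5KO libraries. Gng2, a gamma subunit of heterotrimeric G proteins, had 6.02, 6.22, 2.13 and 2.47 CPM in WT, 0.33, 0.309, 0.0701 and 0.0796 in VAMP7KO and 0, 0, 0.0364 and 0.0934 in ATG5KO (adjusted p = 0.0289), and its 3 counts in ATG5KO put the share kept at 0.771% (95% exact counting interval 0.152 to 2.17%). Arl13b, a GTPase of the primary cilium, had 3.08, 3.11, 1.3 and 1.22 CPM in WT, 0.33, 0.397, 0.28 and 0.199 in VAMP7KO and 0 in all 4 ATG5KO libraries and was at least 9.92-fold higher in VAMP7KO (adjusted p = 0.000854). Arl13b rested on 32 counts in VAMP7KO and entered the test only through its WT level. Mctp2 had a single read over the 8 knockout libraries. Ranbp17, a nuclear transport receptor, had none.

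Purine members were Prps2, an enzyme of nucleotide synthesis, and Entpd2, which degrades extracellular ATP. Prps2 had 9.18, 8.28, 8.63 and 8.44 CPM in WT, 0.231, 0, 0.175 and 0.119 in VAMP7KO and 0.0948, 0, 0 and 0 in ATG5KO. Entpd2 had 3.05, 2.64, 0.73 and 0.834 CPM in WT, 0.198, 0.0441, 0.14 and 0 in VAMP7KO and 0.0948, 0.21, 0.291 and 0.0467 in ATG5KO. Rprm, a cell-cycle inhibitor, had 18.3, 20.4, 2.63 and 2.36 CPM in WT, 0.198, 0.309, 0 and 0.0398 in VAMP7KO and 0.0474, 0.349, 0 and 0 in ATG5KO. The 3 genes did not pass between the lines (adjusted p = 0.0619, adjusted p = 0.485 and adjusted p = 0.628).

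The depth of the loss varied widely. The median share of the WT mean kept was 2.31% in VAMP7KO, with a range of 0 to 36.3%, and 0.941% in ATG5KO, with a range of 0 to 34.5%. As background only, 12.3% of 13141 genes tested were called lower in VAMP7KO than in WT and 22.7% lower in ATG5KO than in WT. No read was counted for 18 members in the 4 VAMP7KO libraries, for 28 in the 4 ATG5KO libraries, and for 9 in all 8. The 9 were Zdhhc2, RGD1311946, Rtl8a, AABR07058410.1, Cadm2, Tox3, Minar2, Ranbp17 and ENSRNOG00000071186. Zdhhc2, a palmitoyltransferase, had 19.2, 20.1, 14.7 and 13 CPM in WT and 0 in all 8 knockout libraries, so its WT mean was at least 595.1-fold above VAMP7KO and at least 550.5-fold above ATG5KO. RGD1311946 had 4.84, 4.55, 2.28 and 3.37 CPM in WT and 0 in all 8 knockout libraries. AABR07058410.1 had 0.645, 0.614, 2.38 and 3.2 CPM in WT and 0 in all 8 knockout libraries. At the other end, Ptpn3, a tyrosine phosphatase, kept 36.3% and 34.5%, and Egln3, an oxygen-sensing prolyl hydroxylase, kept 33.3% and 28.6%. The limit of 0.5 cut through a continuous range. Just inside it lay Kcna3, with a ratio of highest knockout to lowest WT value of 0.47, Cd37 (0.487) and Ptprr (0.4996), and just outside it Igsf5 (0.5005), Ahsp (0.506) and Plcd4 (0.514).

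**Figure D3:**
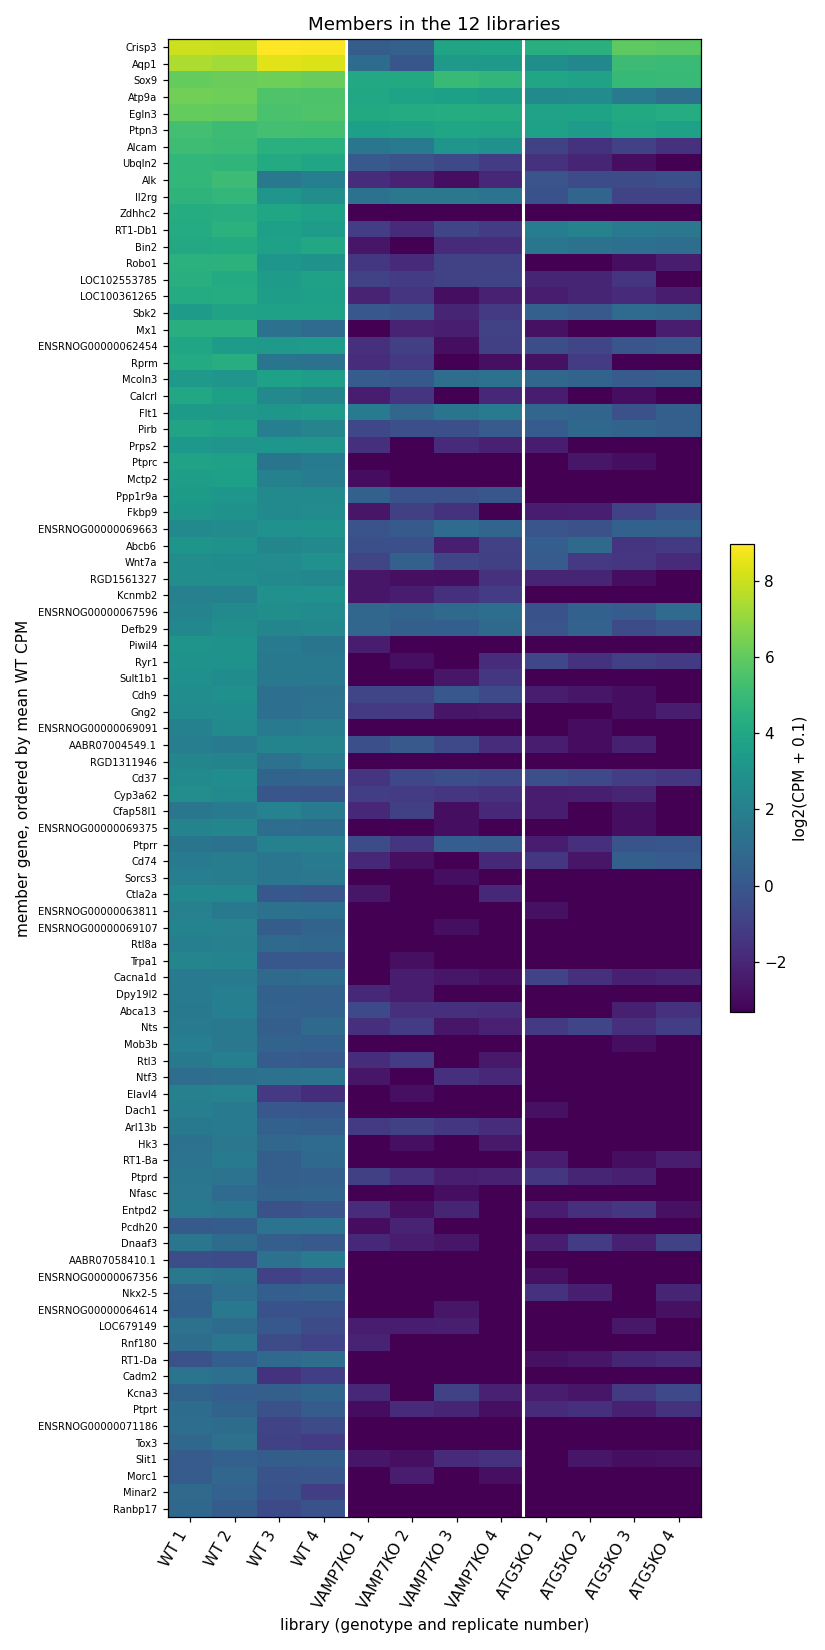
Heat map of log2(CPM + 0.1) for 89 members (rows, ordered by mean WT CPM) in the 12 libraries (columns, by genotype and replicate), with lighter colours for higher values. The 4 WT columns are the lightest in each row, and 9 members are at the floor of the scale in all 8 knockout columns.

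Between the knockout lines, 87 members could be tested, since Cadm2, Elavl4 and Tox3 did not pass the filter on low counts. That filter also saw the WT libraries, where the rule made members high, and on the 2 knockout lines alone only 26 members passed it. Of the 87 members tested with WT in the fit, 17 were higher in VAMP7KO (19.5%, against 21.3% of all genes tested), 12 were higher in ATG5KO (13.8%, against 23.6%) and 58 did not pass. In either direction, 44.9% of all genes tested were called. In this fit neither share of members exceeded that of all genes. Members near the floor in both lines could hardly be called, so these shares support nothing about the members. Within replicates 1 and 2 alone, 19 of 90 members were higher in VAMP7KO and 10 in ATG5KO, against 2665 and 2929 of 13456 genes. Within replicates 3 and 4 alone, 19 and 12 of 87 members were, against 4058 and 4192 of 13114 genes. Among the members called, the 4 with the largest fitted change toward VAMP7KO were Ppp1r9a, Arl13b, Kcnmb2 and Rtl3, all without a read in ATG5KO, and the 4 toward ATG5KO were Nkx2-5, RT1-Da, Bin2 and RT1-Db1. Of those named, Ppp1r9a, Bin2 and RT1-Db1 kept their call on the 2 lines alone, and the others did not pass the filter there.

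**Figure D4:**
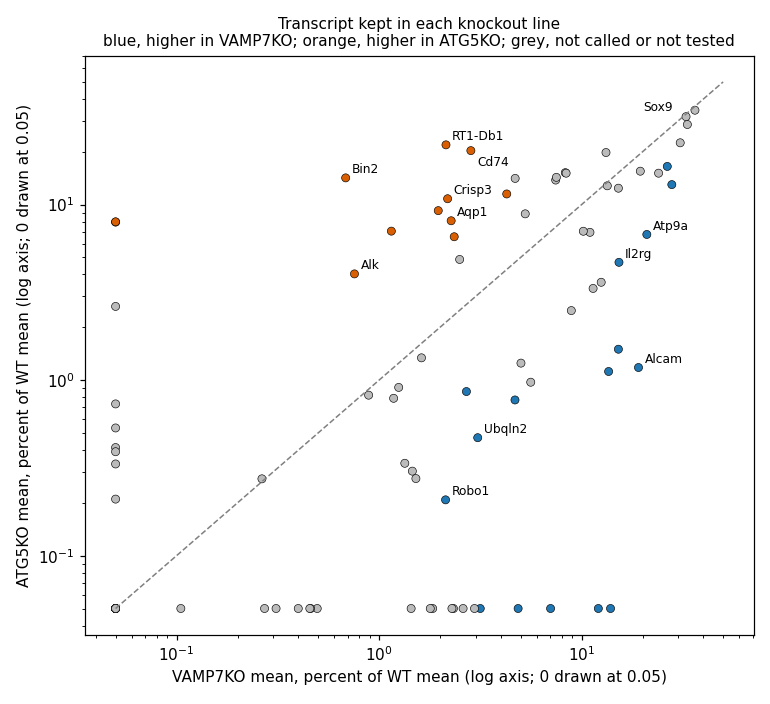
Mean of each member in VAMP7KO (horizontal) and in ATG5KO (vertical) as a percent of its WT mean, both on log axes with 0 drawn at 0.05, and a dashed line of equality. Blue points are members higher in VAMP7KO (17 in all, with 1 not drawn), orange points the 12 higher in ATG5KO and grey points the rest.

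The WT libraries themselves fell into 2 sets, replicates 1 and 2 and replicates 3 and 4, which the labels do not explain. The rule used the mean and the lowest of these same WT values, so the shares of members beside those of all genes are a description and support nothing about the members. Of the 87 members tested, 45 were lower in replicates 3 and 4 (51.7%, against 31.4% of all genes tested), 9 were higher (10.3%, against 30.5%) and 33 did not pass. In either direction, 61.9% of all genes tested were called. The median log2 fold change was -0.61 over members and -0.01 over all genes tested. Among the members called, the 4 with the largest falls were Mx1 (log2 fold change -3.22, SE 0.258, adjusted p = 7.63e-09), Alk (log2 fold change -3.08, SE 0.175, adjusted p = 8.43e-11), Rprm (log2 fold change -2.83, SE 0.223, adjusted p = 1.16e-08) and Cyp3a62 (log2 fold change -2.73, SE 0.301, adjusted p = 4.52e-07). The 4 called members with the largest rises were AABR07058410.1 (log2 fold change 2.25, SE 0.372, adjusted p = 0.00013), Pcdh20 (log2 fold change 1.34, SE 0.343, adjusted p = 0.00338), Aqp1 (log2 fold change 1.12, SE 0.104, adjusted p = 5.3e-08) and RT1-Da (log2 fold change 1.12, SE 0.354, adjusted p = 0.0123). The call of RT1-Da was lost with the DESeq2 Wald test (adjusted p = 0.112), without WT replicate 1 (edgeR adjusted p = 0.142) and without WT replicate 4 (0.0833). Elavl4 and Cadm2, which were not tested, had WT means of 4.19 and 2.36 CPM in replicates 1 and 2 and of 0.263 and 0.318 CPM in replicates 3 and 4. The cause of the sets was not tested.

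**Figure D5:**
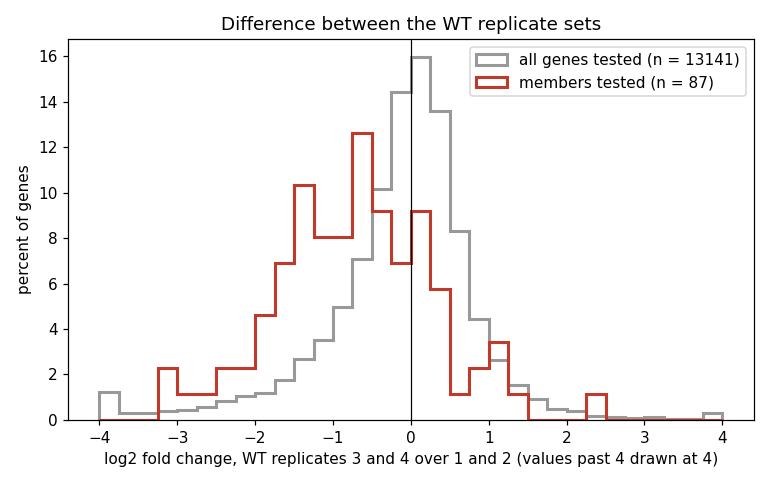
Share of genes (vertical axis, percent) by log2 fold change of WT replicates 3 and 4 over 1 and 2 (horizontal axis, values past 4 drawn at 4), for the 87 members tested (red) and all 13141 genes tested (grey). The members' distribution lies to the left of that of all genes, with medians of -0.61 and -0.01.

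The same contrast was run in each knockout line after these values had been seen. In VAMP7KO, 11 members were higher in replicates 3 and 4 and 8 were lower, against 27.8% and 28.3% of all genes tested. In ATG5KO, 9 were higher and 5 were lower, against 24.4% and 27.6%. The rule capped these same knockout values, and members at the floor could hardly be called, so these counts support nothing about the members. Crisp3 and Aqp1 were higher in replicates 3 and 4 in all 3 genotypes. The log2 fold change of Crisp3 was 1.04 in WT (adjusted p = 4.04e-10), 3.67 in VAMP7KO (adjusted p = 2.3e-13) and 1.42 in ATG5KO (adjusted p = 1.05e-10). That of Aqp1 was 1.12 in WT (adjusted p = 5.3e-08), 2.74 in VAMP7KO (adjusted p = 4.19e-09) and 2.51 in ATG5KO (adjusted p = 1.99e-10). Sox9 was higher in replicates 3 and 4 of VAMP7KO (0.74, adjusted p = 5.64e-06) and of ATG5KO (1.12, adjusted p = 7.94e-08).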

How the data were processed

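RNA-seq was run on 4 libraries each of WT, VAMP7KO and ATG5KO NRK cells, made with a stranded polyA kit from 600 ng of total RNA. The authors trimmed reads with cutadapt, removed rRNA reads with bowtie, mapped the rest to the rat mRatBN assembly with STAR and took counts for each gene from htseq-count with Ensembl annotation. The deposited values are these raw counts, not normalized. The strand setting of the counting is not given in the sources used here, so overlapping genes are uncertain. The study adjusted for a batch that it does not name. A separator missing from the table's header was restored by position, and samples were grouped by label.

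CPM is the count over the library total, times 1000000. Differences were tested in R 4.3.3 with the quasi-likelihood F-test of edgeR 4.0.16 (limma 3.58.1). The counts were scaled by TMM and filterByExpr left 13141 genes, and the fit held all 12 libraries and the replicate number as a block. The replicate sets were compared in a fit of 6 groups of genotype and set, without the block, since the number is contained in the set. P-values were adjusted by Benjamini-Hochberg over all genes tested, at a threshold of 0.05. Replicates are separate dishes of 1 line, so p-values measure only the spread between them. Deviations from the genotype mean correlated at 0.562 to 0.681 between libraries of equal number, and at 0.529 to 0.677 between libraries of the same set with another number, so the pairing comes from the data and reaches no further than the set. A group with 3 counts or fewer in all was taken as at the floor. On simulated counts for 13141 genes, the comparison of VAMP7KO with ATG5KO recovered 98 of 100 genes changed by 1 on the log2 scale and 100 of 100 changed by 2. In the same run 14 unchanged genes were called. The changed genes were drawn from those with a mean above 1 CPM over all libraries. Many members lay below 1 CPM in both knockout lines, so this recovery does not apply to them.

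The members and gene lists were chosen with earlier results of these data known. Named were the 3 members of each list with the highest WT mean, the 4 members with the largest called change in each direction in both tests, the 3 genes on either side of the limit, the 5 highest in WT and the 5 keeping least, and Vamp7. Values of 1 member are not reported here, though it stays in every fit and count. Ptprc, Slit1 and other members given by share alone were added from the lists. Sequences and gene order came from RefSeq (GRCr8), and none of its coordinates were set against the files. Alternatives were DESeq2 1.42.0 (size factors and Wald test), no filter, other blocks, other replicates, each library left out and other limits of the rule. Tables and figures used scipy 1.17.1, matplotlib 3.10.9, numpy 2.4.6 and pandas 2.3.3 under Python 3.11.15.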

Additional observations from a re-analysis of the deposited data

Results flagged for a closer look

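Among the named members, 2 of 97 groups of 4 libraries held a library far from the others, and chance flags about 1 in 20 such groups. VAMP7KO replicate 3 was the highest of its group for Cdh9, at 0.911 CPM. ATG5KO replicate 2 was the highest of its group for Rprm, at 0.349 CPM.

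The difference of replicates 3 and 4 from 1 and 2 was not the same in the knockout lines as in WT for some members, by a test of the difference itself (edgeR, adjusted p under 0.05). Over all members tested, 15 differed in VAMP7KO (17.2%, against 16.5% of all genes) and 13 in ATG5KO (14.9%, against 28.9%). The rule used values of these same WT and knockout libraries, so the shares are a description and support nothing about the members. The values that follow are log2 fold changes of the sets in the knockout line minus that in WT, for members whose sets also differed within the knockout line. In VAMP7KO they were 2.63 for Crisp3, 1.98 for Alcam, 1.62 for Aqp1, 0.55 for Sox9 and -2.12 for Sbk2. Sult1b1 gave 6.29, from 9 counts over the VAMP7KO libraries. In ATG5KO they were 2.85 for Cd74, 2.81 for Fkbp9, 1.39 for Aqp1, 0.93 for Sox9, 0.82 for Egln3, 0.37 for Crisp3 and -1.94 for Abcb6. Abca13 gave 6.41, from 8 counts over the ATG5KO libraries. The cause was not tested.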

How the results depend on the processing

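The rule gave 56 members with 0.25 in place of 0.5 as its limit and 271 with replicates 1 and 2 only, of which 88 were among the 90. Replicates 3 and 4 only gave 121, of which 73 were among the 90. Leaving out each library in turn gave 85 to 104. Between the lines, the replicate block mattered for all genes: without it 1346 genes in place of 2797 were higher in VAMP7KO and 1651 in place of 3106 were higher in ATG5KO, and for members 14 in place of 17 and 9 in place of 12. Only the libraries of the 2 lines, with the replicate block, gave 7 members higher in VAMP7KO and 5 in ATG5KO, from 26 tested. Over all genes that fit gave 2600 and 2880, from 12607 tested. Leave-one-out fits gave 14 to 18 members higher in VAMP7KO and 6 to 12 higher in ATG5KO, with 7 without VAMP7KO replicate 1, VAMP7KO replicate 3 or ATG5KO replicate 3, and 6 without ATG5KO replicate 4. Over all genes they gave 2301 to 2871 and 2605 to 3126. Between the WT sets, they gave 37 to 51 members lower and 6 to 9 higher in replicates 3 and 4, and 3563 to 4451 and 3342 to 4159 over all genes. Of 283 values of 16 named genes under the alternatives, 266 kept their direction and call, 17 kept the direction alone and 0 changed direction. The 17 were 10 of Nkx2-5, 3 of RT1-Da between the WT sets, 2 of Rtl3, and 1 each of Kcnmb2 and RT1-Da between the lines. A level of 3 counts was 0.0952 to 0.142 CPM in a library, which limits how large a fall could be shown for members with low WT levels.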
